A study of Mus musculus with 14 samples.

Results

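The 42 genes described here run the cell cycle and copy the DNA, and they were taken as every array probe annotated to their symbols on mouse bead arrays. They fall into 3 lists by role: 15 genes of replication licensing, the replication fork and nucleotide supply, 11 regulators of the G1 to S step, and 16 genes of G2 and mitosis. Of the 42, 38 had at least 1 probe, with 70 probes in all, and 29 had a probe that passed the filter on low signal, detection p under 0.01 on at least 2 of the 14 arrays. These 29 were tested among 8669 units, a unit being a gene, or a probe with no gene symbol. They were 13 of 15 replication genes, 6 of 11 G1/S regulators and 10 of 16 mitotic genes.

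The study hybridised RNA from 14 mouse samples, 1 per array, in 5 groups named by their labels. Blastocysts cultured in the media ISM1 and ISM2 made up the ISM1/ISM2 group (3 arrays), and blastocysts cultured in KSOM medium with amino acids the KSOM(aa) group (2 arrays). The HTF/MultiBlast group (3 arrays) held samples called multiblastocysts, a term the labels do not define, in HTF medium, a medium modelled on human tubal fluid. The oviduct group (3 arrays) carried only that word as its label, and the micromanipulation control group (3 arrays) gave no medium and no procedure. The labels state no strain, embryo age, pool size or genotype, and no agent or transgene is named for any group. The oviduct arrays carried the RNA of blastocyst genes: *Cdx2*, *Gata3*, *Krt8* and *Krt18*, which mark the outer trophectoderm layer, and *Pou5f1* and *Nanog*, of the inner cells, were detected on all 14 arrays. The oviduct epithelium genes *Ovgp1*, *Pax8*, *Krt5*, *Tppp3* and *Wt1* were detected on 0 arrays and *Foxj1*, of ciliated cells, on 3. The muscle, stroma, blood and cumulus genes that had a probe were detected on 0 arrays, except *Acta2* and *S100a9*, each on 5, so the group is called oviduct below as a label and not as a tissue. *S100a9*, a neutrophil protein gene, averaged a log2 intensity of 6.69 on the oviduct arrays, while the means of the remaining groups were 4.34 to 5.20, and its part in the results was not tested. Labels say the groups are biological replicates, but the 3 control arrays carry the same replicate number in their descriptions, so p-values may measure spread that is partly technical.

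Array quality limits what these genes can show. The median intensity was lowest on oviduct replicate 1 (96.6) and highest on oviduct replicate 2 (152), and 8533 to 10188 probes were detected per array, with the fewest also on oviduct replicate 1. Replicates correlated at 0.988 to 0.989 in the control group, 0.978 to 0.988 in HTF/MultiBlast, 0.967 to 0.984 in ISM1/ISM2 and 0.938 to 0.965 in oviduct. The 2 KSOM(aa) arrays correlated at 0.940 with each other, below the mean correlation of each with the other arrays (0.955 and 0.950). They stand apart in these genes as well: the root mean square SD of the 29 tested members was 0.62 in KSOM(aa) and 0.22 to 0.30 in the other groups. Results are therefore also given without these arrays. Lineage genes differed between the groups too, as mean log2 intensities. *Nanog* was at 10.98 in oviduct and at 11.79 to 12.04 in the 4 other groups. *Pou5f1* was at 8.10 in oviduct and 8.07 in ISM1/ISM2 and at 7.12 to 7.69 elsewhere. The trophectoderm genes *Cdx2* and *Gata3* were at 12.92 and 10.20 in oviduct and lowest in ISM1/ISM2, at 12.36 and 9.51, while *Krt8* lay at 13.80 to 13.96 and *Krt18* at 12.75 to 13.33. The part of these shifts in the results below was not tested.

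Before a cell can copy its DNA, the origin recognition complex, *Cdc6* and *Cdt1* load the MCM helicase onto origins in G1. D-type and E-type cyclins with their kinases then push the cell into S phase, partly by releasing E2F factors from RB, and E2F turns on many replication genes. Later in the cycle, cyclins A and B with *Cdk1* drive mitosis, whose genes are commonly switched on in G2 through CHR elements and CCAAT boxes. The culture medium is known to affect gene expression in cells of the preimplantation mouse embryo.

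The DNA around the start of these genes differs between the lists in the motifs it holds. RefSeq promoters (build GRCm38.p6, 250 bases before to 50 after each gene's start) were at hand for 34 of the 42 genes, in 36 promoters, since *Ccnd3* and *Mcm7* have 2 each. *Aurkb*, *Ccna2*, *Ccnd1*, *Ccnd2*, *Ccne2*, *Cdc25c*, *Gmnn* and *Mcm4* were not matched. Both strands were searched for an E2F site (TTTCCCGC, TTTGGCGC, TTTCGCGC or TTTGCCGC), a CHR element (TTTGAA) and a CCAAT box (CCAAT). An E2F site was in 7 of 14 replication promoters, in 2 of 9 G1/S promoters and in 1 of 13 mitotic promoters, beside 2.26% of all 32851 promoters. A CHR element was in 1 of 14 replication promoters, 0 of 9 G1/S promoters and 8 of 13 mitotic promoters, beside 17.9% of all promoters. The CCAAT box was in 11 of 14 replication, 4 of 9 G1/S and 11 of 13 mitotic promoters, beside 37.4% of all.

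Among other genes of the same processes, an E2F site was in 14 of 52 promoters of other replication genes and 3 of 56 of other mitotic genes, and a CHR element in 9 of 52 and 36 of 56. These are matches of letters in a window and say nothing about binding. The 4 promoters below belong to members that differed between ISM1/ISM2 and oviduct, 2 mitotic genes that were higher and 2 replication genes that were lower. They lie at chr10:69352863-69353162 on the minus strand (*Cdk1*), chr6:66534971-66535270 on the plus strand (*Mad2l1*), chr1:20820263-20820562 on the minus strand (*Mcm3*) and chr8:122567765-122568064 on the plus strand (*Cdt1*). Each is read 5′ to 3′ on its gene's strand, and capitals mark every match to the 3 motifs, on either strand; no base lies in more than 1 match.
Cdk1: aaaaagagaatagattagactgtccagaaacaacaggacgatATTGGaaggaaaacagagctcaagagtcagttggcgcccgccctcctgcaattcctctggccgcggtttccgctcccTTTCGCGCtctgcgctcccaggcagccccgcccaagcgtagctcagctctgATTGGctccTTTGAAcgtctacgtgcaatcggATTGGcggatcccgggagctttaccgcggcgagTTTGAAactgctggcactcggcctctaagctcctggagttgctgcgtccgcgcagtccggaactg
Mad2l1: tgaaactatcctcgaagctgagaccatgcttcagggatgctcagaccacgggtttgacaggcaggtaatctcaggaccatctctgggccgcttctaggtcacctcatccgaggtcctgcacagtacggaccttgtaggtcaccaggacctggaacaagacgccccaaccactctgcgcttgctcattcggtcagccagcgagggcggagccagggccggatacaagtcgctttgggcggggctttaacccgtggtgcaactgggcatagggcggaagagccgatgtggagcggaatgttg
Mcm3: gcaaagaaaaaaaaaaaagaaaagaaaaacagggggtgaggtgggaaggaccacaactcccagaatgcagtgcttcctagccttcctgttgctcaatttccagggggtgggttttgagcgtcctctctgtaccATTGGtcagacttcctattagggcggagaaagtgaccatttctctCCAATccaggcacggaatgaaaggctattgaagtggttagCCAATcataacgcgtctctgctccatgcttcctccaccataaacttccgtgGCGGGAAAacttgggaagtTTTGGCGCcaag
Cdt1: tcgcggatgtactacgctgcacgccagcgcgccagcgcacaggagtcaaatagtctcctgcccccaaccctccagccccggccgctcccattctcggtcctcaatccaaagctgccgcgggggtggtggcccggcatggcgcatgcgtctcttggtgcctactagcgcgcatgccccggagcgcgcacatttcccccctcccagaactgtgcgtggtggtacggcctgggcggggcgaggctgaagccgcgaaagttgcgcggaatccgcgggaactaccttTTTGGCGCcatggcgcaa
In *Cdk1* the 2 CHR elements begin 71 and 15 bases before the start, with CCAAT boxes on the other strand that begin 208, 80 and 48 bases before it and an E2F site at 131. *Mcm3* has its E2F sites at bases 20 and 39 after the start and *Cdt1* has 1 at base 33, while *Mad2l1* holds none of the 3 motifs.

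Most members that differed from oviduct did so in ISM1/ISM2, where *Ccnd1* was lower and 4 mitotic genes were higher. Of 10 mitotic genes 4 rose (*Mad2l1*, *Ccna2*, *Cdk1* and *Cdc25c*) and 0 fell, with a median log2 difference of 0.50, where 14.3% of all 8669 units rose. Of 13 replication genes 0 rose and 2 fell (*Mcm3* and *Cdt1*), with a median of -0.12, where 11.5% of all units fell, so the share of replication genes that fell was near that of all units. The G1/S regulators split: *Ccne1* rose, *Ccnd1* and *Cdc25a* fell, and the other 3 did not pass. The median of all units was 0.02. Differences are limma estimates on log2 normalised intensity, and adjusted p-values are Benjamini-Hochberg over all 8669 units with 0.05 as the threshold.

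The count of 9 members, 5 higher and 4 lower, depends on which arrays enter. It was 4 without oviduct replicate 1, 4 without oviduct replicate 3, and, of the ISM1/ISM2 arrays, 4 without replicate 2 and 3 without replicate 1. With both KSOM(aa) arrays left out it was 12, 7 higher and 5 lower. Calls over all 8669 units moved too, from 2237 to 2187 without oviduct replicate 1 and 1932 without oviduct replicate 3. They numbered 1620 without ISM1/ISM2 replicate 2, 1561 without ISM1/ISM2 replicate 1 and 2575 with both KSOM(aa) arrays left out. Another scaling, to each array's 75th percentile of intensity in place of quantiles, gave 11 members higher and 3 lower, with 2193 of all units called. There the replication genes *Mcm10* (0.70, adjusted p = 0.0217), *Rrm2* (1.13, 0.0356) and *Tyms* (0.82, 0.0221) rose and *Cdt1* no longer passed. *Tyms* also rose with offset 50 (adjusted p = 0.0377), the mean of the probes (0.0377) and probes detected on all arrays (0.044). It rose with a replicate block (0.029) and array weights (0.0453) too. With both KSOM(aa) arrays left out, *Tyms* (0.017) and *Rrm2* (0.0151) were added as higher, and *Rrm2* rose without oviduct replicate 2 (0.0497). The split of higher against lower replication genes thus depends on the scaling, the processing and the arrays used. Scaling to the 75th percentile moved the replication median to 0.19 and the mitotic median to 0.73. The mitotic median lay above the replication median under both scalings.

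**Figure D1:**
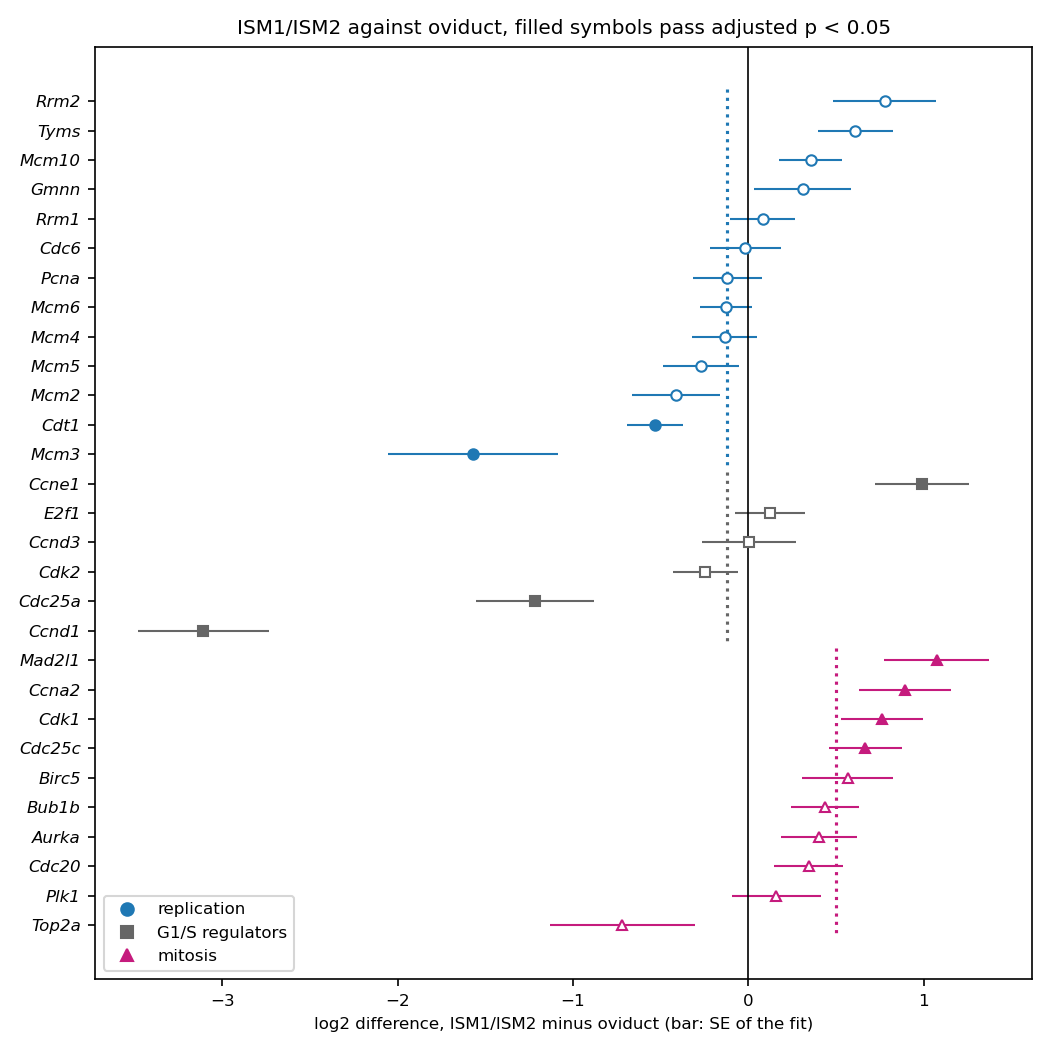
Log2 difference of each of the 29 tested genes, ISM1/ISM2 minus oviduct (x axis), with the standard error of the fit as bars; filled symbols pass the threshold and dotted lines are the medians of the lists. The mitotic genes (triangles) lie to the right of 0 except *Top2a*, the replication genes (circles) lie on both sides, and *Ccnd1* lies farthest left.

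*Ccnd1*, cyclin D1, which activates CDK4 and CDK6 in response to growth signals, had the largest difference of the 29 members. Its log2 intensity was 8.48, 8.88 and 8.51 on the oviduct arrays, 7.68, 6.65 and 7.33 on the control arrays and 7.04 and 7.18 on the KSOM(aa) arrays. It was 6.61, 6.78 and 7.02 in HTF/MultiBlast and 6.48, 5.38 and 4.68 in ISM1/ISM2, where it was detected on 2 of 3 arrays. Every oviduct array lay above all 11 others, and every ISM1/ISM2 array lay below all 11 others. Relative to oviduct it was lower by a log2 difference of -3.11 ± 0.37 in ISM1/ISM2 (SE of the fit, 3 arrays each, 8.62-fold, adjusted p = 6.5e-05) and of -1.82 ± 0.37 in HTF/MultiBlast (3.53-fold, adjusted p = 0.0128). The call in ISM1/ISM2 held in every alternative that tested the gene, with adjusted p from 2.1e-05 to 0.00309, but its size depends on the processing of low signals, since 1 of the 3 ISM1/ISM2 arrays was not above background. The log2 difference was -2.38 with offset 50 and -3.83 with the authors' values. The call in HTF/MultiBlast was lost without HTF/MultiBlast replicate 1 (adjusted p = 0.0652), with the authors' values (0.0567) and with oviduct replicate 2 alone (0.104). The differences of -1.52 ± 0.42 in KSOM(aa) (adjusted p = 0.16) and -1.40 ± 0.37 in the control group (adjusted p = 0.11) did not pass. A second *Ccnd1* probe gave -3.24 in ISM1/ISM2 and -1.80 in HTF/MultiBlast.

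*Ccnd1* was also lower in ISM1/ISM2 than in the control group and in KSOM(aa), and did not pass against HTF/MultiBlast. Against the control group the log2 difference was -1.71 ± 0.37 (adjusted p = 0.00655), and the adjusted p lay between 0.000753 and 0.0366 whichever array was left out. Against KSOM(aa) it was -1.59 ± 0.42 (adjusted p = 0.0251), which was lost without either KSOM(aa) array (0.0568 without replicate 1, 0.11 without replicate 2) and without ISM1/ISM2 replicate 2 (0.0721) or 3 (0.0666). It was also lost with all probes tested (0.0665), with array weights (0.198) and when only these 2 groups were fitted (0.148). Against HTF/MultiBlast it was -1.29 ± 0.37, just above the threshold (adjusted p = 0.0541), while the second *Ccnd1* probe passed with -1.44 (0.0315 over all tested probes). *Ccnd1* passed without ISM1/ISM2 replicate 1 (-1.77, adjusted p = 0.00808), with the mean of the probes (0.0385) and with array weights (0.0177).

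*Ccne1*, cyclin E1, which activates CDK2 at the entry into S phase, went the other way. Its log2 intensity was 6.71, 6.50 and 6.81 in oviduct, 6.0, 6.53 and 6.36 in the control group, 6.10 and 6.89 in KSOM(aa), and 6.80, 6.28 and 7.28 in HTF/MultiBlast. In ISM1/ISM2 it was 7.76, 7.71 and 7.52, above all 11 other arrays. The rise over oviduct was 0.99 ± 0.27 (1.99-fold, adjusted p = 0.0156), lost without oviduct replicate 2 (0.051), without ISM1/ISM2 replicate 1 (0.0548) and with oviduct replicate 2 alone (0.0759). The rise over the control group was 1.37 ± 0.27 (2.58-fold, adjusted p = 0.00338), with an adjusted p of at most 0.0204 whichever array was left out. The rise over KSOM(aa) was 1.17 ± 0.30 (adjusted p = 0.0229), lost without KSOM(aa) replicate 1 (0.152) and ISM1/ISM2 replicates 1 (0.0723) and 2 (0.0615), with array weights (0.16) and when only these 2 groups were fitted (0.0948). Against HTF/MultiBlast it was 0.88 ± 0.27 (adjusted p = 0.0661). That last difference passed without HTF/MultiBlast replicate 3 (adjusted p = 0.0393), without either KSOM(aa) array or both (0.0406), and with offset 50 (0.0489).

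*Ccnd1* and *Ccne1* were the only members of the 29 that passed the F test over all 5 groups (adjusted p = 0.000993 and 0.0189), where 18.5% of all units passed. The count was 1 without ISM1/ISM2 replicate 1 or 2, 4 without oviduct replicate 1, and 9 without either KSOM(aa) array or both. The number of all units that passed in these fits is not given, so these shifts are not read as particular to the members. *Rrm2* was next, with an adjusted p of 0.0585.

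**Figure D2:**
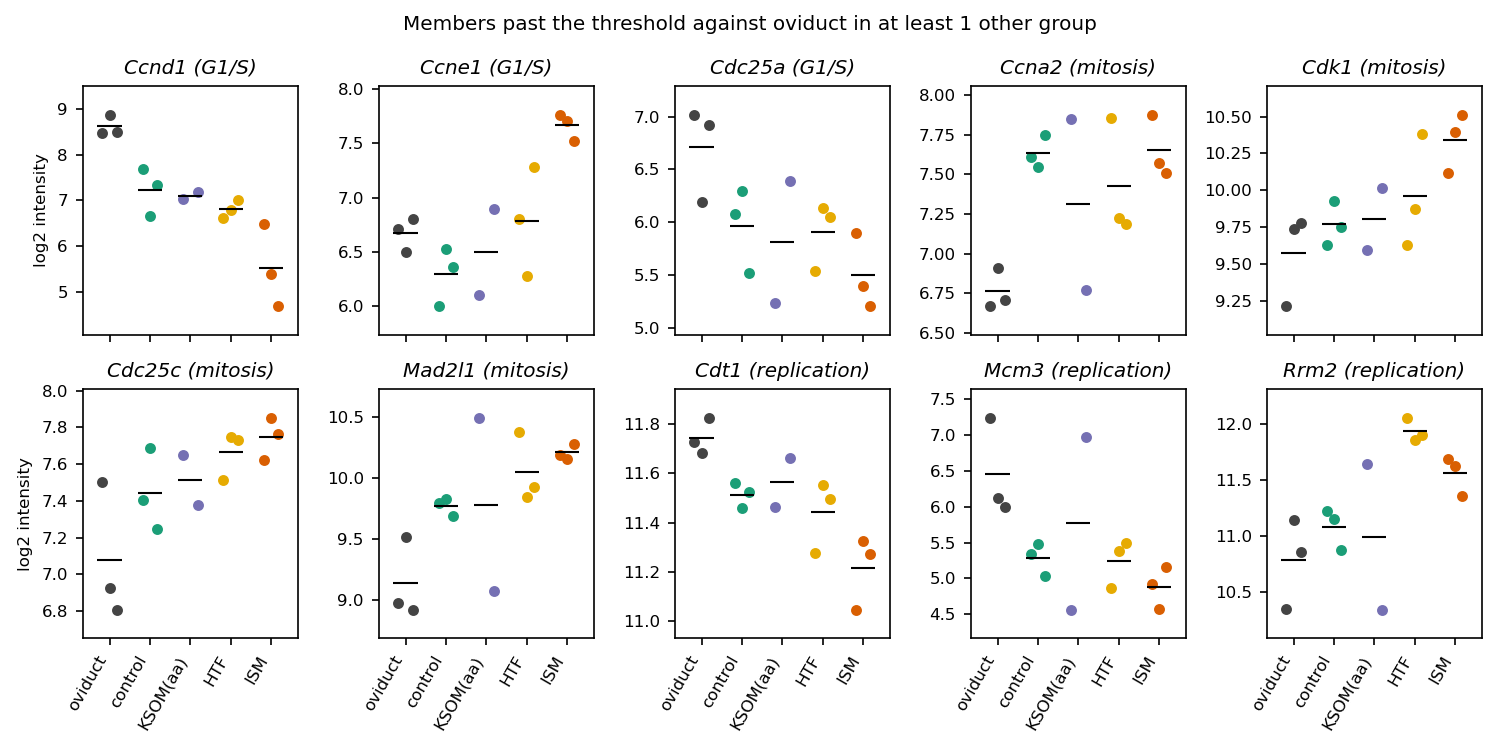
Log2 normalised intensity (y axis, a separate scale for each gene) of the 10 members that passed against oviduct in ISM1/ISM2 or HTF/MultiBlast; points are arrays and lines are group means (HTF is HTF/MultiBlast, ISM is ISM1/ISM2, control is the micromanipulation control). *Ccnd1* is highest on the 3 oviduct arrays and lowest on the 3 ISM1/ISM2 arrays, and the 2 KSOM(aa) arrays lie far apart for *Mcm3*, *Mad2l1*, *Ccna2* and *Rrm2*.

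*Cdc25a*, the phosphatase that frees CDK2 and CDK1 from inhibitory phosphate, was the third G1/S regulator past the threshold. It had log2 intensities of 7.02, 6.19 and 6.92 in oviduct and of 5.90, 5.40 and 5.20 in ISM1/ISM2, detected there on 2 of 3 arrays. Control arrays had 6.08, 6.30 and 5.51, KSOM(aa) arrays 5.23 and 6.39, and HTF/MultiBlast arrays 5.53, 6.13 and 6.05. Oviduct replicate 2 lay within the ranges of the control and KSOM(aa) groups, and the 2 other oviduct arrays lay above it. The fall in ISM1/ISM2 was -1.21 ± 0.34 (2.32-fold, adjusted p = 0.0177). It was lost without oviduct replicate 1 (0.0574) or 3 (0.0537), without ISM1/ISM2 replicate 2 (0.0567) or 3 (0.062), and with oviduct replicate 2 alone (-0.70, 0.363).

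The 3 other G1/S regulators tested did not pass in ISM1/ISM2 against oviduct: *E2f1*, an activating E2F factor, with 0.12 ± 0.20, *Ccnd3*, cyclin D3, with 0.00 ± 0.27, and *Cdk2* with -0.25 ± 0.19. Against the control group *Ccnd3* was higher by 0.70 ± 0.27 (adjusted p = 0.0918). The 4 *Cdk2* probes disagreed in sign, from -0.77 to 0.27, and none passed. *Ccnd2*, *Ccne2*, *Cdk6* and *Cdkn1b*, the p27 inhibitor, had probes that were detected on 0 arrays, and *Cdk4* had no probe.

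Among the mitotic genes, *Mad2l1*, a spindle checkpoint protein that holds back the anaphase promoting complex, had the highest difference in ISM1/ISM2. Its log2 intensity was 8.97, 9.51 and 8.92 in oviduct, 9.79, 9.83 and 9.69 in the control group and 10.49 and 9.07 in KSOM(aa). It was 10.38, 9.84 and 9.92 in HTF/MultiBlast and 10.19, 10.16 and 10.28 in ISM1/ISM2. All arrays of the control, HTF/MultiBlast and ISM1/ISM2 groups lay above all oviduct arrays, and KSOM(aa) replicate 2 lay among them. The rise in ISM1/ISM2 was 1.08 ± 0.30 (2.11-fold, adjusted p = 0.0184). It was lost without oviduct replicate 1 (0.0509) or 3 (0.0565), without ISM1/ISM2 replicate 1 (0.05004) and with oviduct replicate 2 alone (0.70, 0.319).

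*Ccna2*, cyclin A2, which works with CDK2 in S phase and with CDK1 in G2, had log2 intensities of 6.67, 6.91 and 6.71 in oviduct and 7.88, 7.57 and 7.51 in ISM1/ISM2. It had 7.61, 7.55 and 7.75 in the control group, 7.86, 7.23 and 7.19 in HTF/MultiBlast, and 7.85 and 6.77 in KSOM(aa). As with *Mad2l1*, KSOM(aa) replicate 2 was the only array of another group within the oviduct range. The rise in ISM1/ISM2 was 0.89 ± 0.26 (1.86-fold, adjusted p = 0.0242), and it was lost without oviduct replicate 1 (0.0573) or 3 (0.0554), without ISM1/ISM2 replicate 1 (0.0916) or 2 (0.052), and with oviduct replicate 2 alone (0.241). In the control group the difference was nearly the same, 0.88 ± 0.26, with an adjusted p of 0.133.

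*Cdk1*, the kinase that triggers mitosis and whose promoter is printed above, had log2 intensities of 9.21, 9.74 and 9.78 in oviduct and 10.11, 10.39 and 10.51 in ISM1/ISM2. It had 9.63, 9.93 and 9.75 in the control group, 9.59 and 10.01 in KSOM(aa), and 9.63, 9.87 and 10.38 in HTF/MultiBlast. The ISM1/ISM2 arrays lay above the oviduct, control and KSOM(aa) arrays, and overlapped with HTF/MultiBlast. The rise over oviduct was 0.76 ± 0.23 (1.70-fold, adjusted p = 0.0292). It was lost without oviduct replicate 1 (0.58, 0.0957), without ISM1/ISM2 replicate 2 (0.0791) or 3 (0.0877), with oviduct replicate 2 alone (0.239) and when only these 2 groups were fitted (0.0679). A dimmer *Cdk1* probe, detected on 5 arrays, gave 0.57 with an adjusted p of 0.152 over all tested probes.

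*Cdc25c*, a phosphatase that activates CDK1 at mitotic entry, had log2 intensities of 7.50, 6.93 and 6.81 in oviduct and 7.62, 7.85 and 7.76 in ISM1/ISM2. It had 7.40, 7.69 and 7.24 in the control group, 7.65 and 7.38 in KSOM(aa), and 7.51, 7.75 and 7.73 in HTF/MultiBlast. Oviduct replicate 1 was the highest oviduct array and lay just below the lowest ISM1/ISM2 array. The rise in ISM1/ISM2 was 0.67 ± 0.21 (1.59-fold, adjusted p = 0.0311), and a second probe gave 0.81 (0.0134 over all tested probes). The call was lost without oviduct replicate 2 (0.0914) or 3 (0.102), without ISM1/ISM2 replicate 1 (0.054), 2 (0.0955) or 3 (0.0683), and when only these 2 groups were fitted (0.105).

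The other 6 mitotic genes tested did not pass in ISM1/ISM2. *Birc5*, survivin, of the chromosomal passenger complex, differed from oviduct by 0.57 ± 0.26 (adjusted p = 0.129), and of its 3 probes 1 passed with 0.72 (0.025 over all tested probes). It passed with scaling to the 75th percentile (0.84, 0.0255), as did *Aurka* (0.74, 0.021) and *Cdc20* (0.71, 0.0249), and also with array weights (0.0169) and oviduct replicate 2 alone (0.0409). *Bub1b*, a spindle checkpoint kinase, differed by 0.44 ± 0.19, the centrosomal kinase *Aurka* by 0.40 ± 0.22, *Cdc20*, the activator of the anaphase promoting complex, by 0.34 ± 0.20, and *Plk1*, a mitotic kinase, by 0.16 ± 0.25. *Cdc20* had 4 tested probes, from -0.24 on the dimmest to 0.55. *Top2a*, the topoisomerase that untangles sister chromatids, was the single mitotic gene below 0, at -0.72 ± 0.41 (adjusted p = 0.224), with 9.19, 8.96 and 8.98 in oviduct against 8.02, 8.46 and 8.50 in ISM1/ISM2. With the KSOM(aa) arrays left out it passed as lower in ISM1/ISM2 (adjusted p = 0.0392) and in HTF/MultiBlast (-0.90, 0.0355). *Ccnb2*, *Cdc25b* and *Bub1* had probes detected on 0 arrays, and *Ccnb1*, *Aurkb* and *Mki67* had no probe.

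Every ISM1/ISM2 array lay above every oviduct array for 7 of 10 mitotic genes and for 2 of 13 replication genes (*Rrm2* and *Tyms*), where this held for 20.4% of all units. Every ISM1/ISM2 array lay below every oviduct array for 1 mitotic gene (*Top2a*) and 2 replication genes (*Mcm3* and *Cdt1*), where it held for 17.8% of all units. The same comparison held a higher mean of *Nanog* (12.04 against 10.98) and lower means of *Cdx2* (12.36 against 12.92) and *Gata3* (9.51 against 10.20), and their part in it was not tested. In bulk RNA, fewer cells in a phase of the cycle and less RNA per cell cannot be told apart.

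The licensing genes gave both of the falls among the replication genes. *Cdt1*, which loads the MCM helicase and whose promoter is printed above, had log2 intensities of 11.73, 11.68 and 11.82 in oviduct and 11.05, 11.33 and 11.27 in ISM1/ISM2. It had 11.56, 11.46 and 11.52 in the control group, 11.47 and 11.66 in KSOM(aa), and 11.28, 11.55 and 11.50 in HTF/MultiBlast. Every oviduct array lay above all 11 others. The fall in ISM1/ISM2 was -0.53 ± 0.16 (1.45-fold, adjusted p = 0.0263). It shrank to -0.20 (adjusted p = 0.446) with scaling to the 75th percentile, and it was also lost without oviduct replicate 3 (0.0636), without ISM1/ISM2 replicate 1 (0.103), with oviduct replicate 2 alone (0.192) and when only these 2 groups were fitted (0.112).

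*Mcm3*, a subunit of the helicase ring, had log2 intensities of 7.24, 6.12 and 6.0 in oviduct and 4.92, 4.57 and 5.15 in ISM1/ISM2. It had 5.35, 5.49 and 5.03 in the control group, 4.56 and 6.97 in KSOM(aa), and 4.86, 5.39 and 5.50 in HTF/MultiBlast. Oviduct and KSOM(aa) replicate 2 held the high values, and the 10 other arrays lay at 5.50 or below. The gene was detected on 8 of 14 arrays and on 0 of the 3 ISM1/ISM2 arrays, so the fall was at least 2.11-fold, with a fitted log2 difference of -1.57 ± 0.49 (adjusted p = 0.0301). The bound sets the oviduct mean against the lowest signal above background on each ISM1/ISM2 array. It bounds only the ISM1/ISM2 side, since the oviduct mean has its own spread and is lifted by replicate 1 (7.24). The call was lost without oviduct replicate 1 (-1.18, 0.109), without ISM1/ISM2 replicate 1 (0.0728) or 2 (0.0979), with oviduct replicate 2 alone (0.256) and when all probes were tested (0.0861).

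No other helicase or loader gene passed. In ISM1/ISM2 the log2 difference was -0.02 ± 0.20 for the loader *Cdc6*, -0.41 ± 0.25 for *Mcm2*, -0.13 ± 0.19 for *Mcm4*, -0.27 ± 0.22 for *Mcm5*, -0.13 ± 0.15 for *Mcm6* and 0.36 ± 0.18 for *Mcm10*, which helps to start the fork. Adjusted p-values of these genes ran from 0.168 to 0.964. The 3 *Mcm6* probes differed in size, with -0.13, -0.48 and -0.91, and none passed. *Gmnn*, geminin, which blocks *Cdt1* after origins have fired, differed by 0.31 ± 0.28, and *Pcna*, the sliding clamp, by -0.12 ± 0.20. *Orc1* and *Mcm7* had probes that were detected on 0 arrays.

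The nucleotide supply genes *Rrm2* and *Tyms* had the highest differences of the replication list in ISM1/ISM2. *Rrm2*, the inducible subunit of ribonucleotide reductase, had log2 intensities of 10.34, 11.14 and 10.86 in oviduct and 12.05, 11.85 and 11.90 in HTF/MultiBlast. It had 11.22, 11.15 and 10.88 in the control group, 11.65 and 10.34 in KSOM(aa), and 11.69, 11.63 and 11.36 in ISM1/ISM2. Every HTF/MultiBlast array lay above all 11 others. The rise in HTF/MultiBlast was 1.16 ± 0.29 (2.23-fold, adjusted p = 0.0366), and in ISM1/ISM2 the difference was 0.78 ± 0.29 (adjusted p = 0.0689).

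The *Rrm2* call in HTF/MultiBlast was lost in 9 of the 14 fits that left out 1 array. These were the fits without HTF/MultiBlast replicate 1 (0.141), 2 (0.0719) or 3 (0.1), without oviduct replicate 1 (0.0969) or 3 (0.0682), without control replicate 1 (0.0546), 2 (0.0553) or 3 (0.052), and without ISM1/ISM2 replicate 2 (0.0514). Of the other alternatives, it was lost with the authors' values (0.0519), all probes tested (0.0792), the mean of the probes (0.96, 0.0746) and the replicate block (0.0513). With oviduct replicate 2 alone the log2 difference shrank to 0.79. A second *Rrm2* probe gave 0.77 in HTF/MultiBlast with an adjusted p of 0.182 over all tested probes. *Tyms*, thymidylate synthase, differed by 0.61 ± 0.21 in ISM1/ISM2 (adjusted p = 0.0516), with 9.03, 9.30 and 9.17 in oviduct and 9.63, 9.88 and 9.82 in ISM1/ISM2, and its second probe passed with 0.68 (0.0432 over all tested probes). *Rrm1*, the large reductase subunit, differed by 0.08 ± 0.18.

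**Figure D3:**
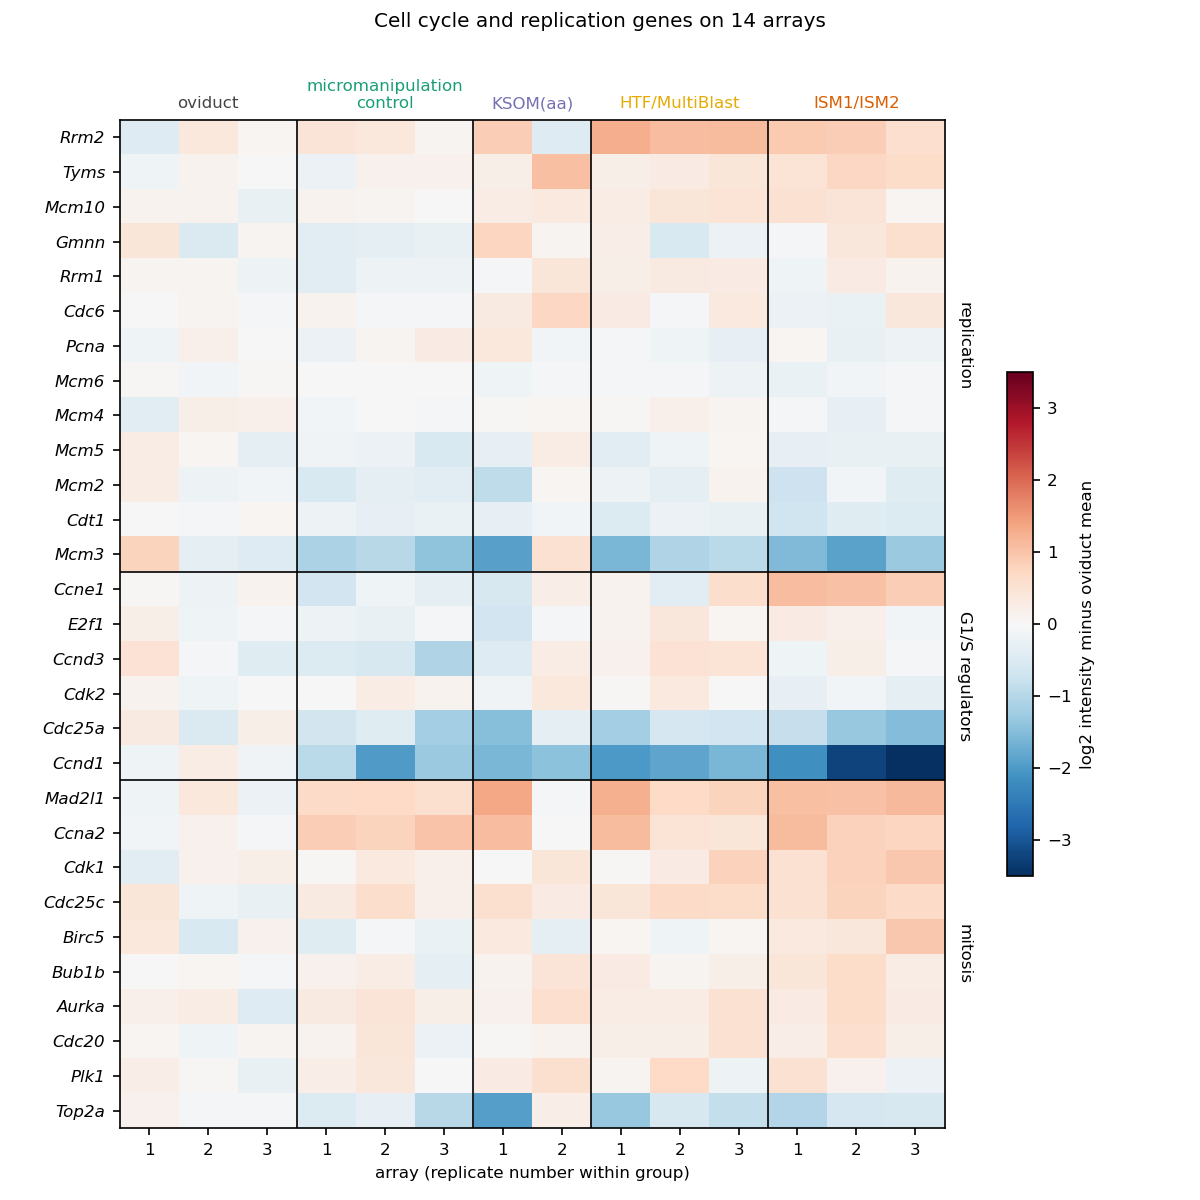
Log2 intensity of the 29 tested genes on each of the 14 arrays minus the oviduct mean of the gene, with red above and blue below; rows are ordered within each list by the difference of ISM1/ISM2 from oviduct. The *Ccnd1* row is blue on all 11 arrays outside oviduct, and the 2 KSOM(aa) columns differ in *Mcm3*, *Rrm2*, *Top2a*, *Mad2l1* and *Ccna2*.

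In HTF/MultiBlast against oviduct 1 member of 29 rose, *Rrm2*, and 1 fell, *Ccnd1*, where 3.51% of all units rose and 2.68% fell. None of the 10 mitotic genes passed, and 4 had an unadjusted p under 0.05, as did 1968 of all 8669 units. The median difference of the mitotic genes was 0.34 beside -0.09 for the replication genes and 0.03 for all units. With scaling to the 75th percentile the replication median turned to 0.11 and the mitotic median was 0.55. *Cdc25c* rose without oviduct replicate 1 (0.80, adjusted p = 0.0317) and with array weights (0.71, 0.0211). The count was 0 without HTF/MultiBlast replicate 1, where 174 of all 8669 units passed in place of 536. It was 1 without oviduct replicate 3, without any 1 control array, without HTF/MultiBlast replicate 2 or 3 and without ISM1/ISM2 replicate 2. With either or both KSOM(aa) arrays left out, 5 members passed: *Mad2l1* also rose (0.91, adjusted p = 0.0165), and *Mcm3* (-1.20, 0.0305) and *Top2a* (-0.90, 0.0355) also fell.

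In KSOM(aa) against oviduct 0 of 29 members passed limma's test, where 0.254% of all units passed. An unadjusted p under 0.05 was held by 4 of the 29 and by 1086 of all 8669 units. The median was 0.14 for replication genes, 0.33 for mitotic genes and 0.01 for all units. Its 2 arrays gave log2 intensities of 7.12 and 9.27 for *Top2a*, 10.49 and 9.07 for *Mad2l1* and 11.65 and 10.34 for *Rrm2*, so that each mean stands for no array. Without KSOM(aa) replicate 2, 3 members passed: *Mad2l1* rose (1.36, adjusted p = 0.0303), and *Top2a* (-1.92, 0.0206) and *Mcm3* (-1.89, 0.0397) fell. In the micromanipulation control against oviduct 0 of 29 passed, where 0.427% of all units passed. An unadjusted p under 0.05 was held there by 5 of the 29 and by 1476 of all 8669 units. *Ccna2* rose there with either or both KSOM(aa) arrays left out (0.88, adjusted p = 0.0473), and *Ccna2* and *Ccnd1* passed when arrays were weighted by quality (0.76, 0.0423, and -1.69, 0.0159).

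These 4 comparisons share the 3 oviduct arrays. Set against KSOM(aa) and against the control group, ISM1/ISM2 differed in *Ccnd1* and *Ccne1* among the 29 members. Against HTF/MultiBlast it differed in no member, though the second *Ccnd1* probe passed there. *Ccne1* rose and *Ccnd1* fell against KSOM(aa), where 6.29% of all units rose and 5.32% fell, and against the control group, where 9.08% rose and 7.71% fell. Against HTF/MultiBlast 0 of 29 passed, where 7.13% of all units passed. An unadjusted p under 0.05 was held there by 3 of the 29 and by 1884 of all 8669 units. The count against KSOM(aa) was 0 when ISM1/ISM2 replicate 2 was left out, and 1 when ISM1/ISM2 replicate 1 or 3 or KSOM(aa) replicate 2 was. Against the control group 4 members passed without either or both KSOM(aa) arrays, with *Tyms* (0.58, adjusted p = 0.0314) and *Birc5* (0.80, 0.0359) added as higher. The median difference of the 10 mitotic genes was 0.17 against HTF/MultiBlast, 0.25 against KSOM(aa) and 0.26 against the control group, and 0 of them passed in the 3 comparisons. *Birc5* was nearest, 0.80 ± 0.26 above the control group with an adjusted p of 0.0507, and 1 of its 3 probes passed there (0.86, 0.0139 over all tested probes). It passed against the control group with scaling to the 75th percentile (adjusted p = 0.0373), with probes detected on all arrays (0.0433), with the mean of the probes (0.0247), with offset 50 (0.0389), with array weights (0.0145) and when only these 2 groups were fitted (0.0225). *Cdk1* also passed in the last of these fits (0.57, adjusted p = 0.041). Without KSOM(aa) replicate 1, *Mad2l1* passed as higher than KSOM(aa) (1.14, 0.0201).

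The contrast of the lists was followed array by array, as the median over 10 mitotic genes minus the median over 13 replication genes, each gene relative to its oviduct mean. It was 0.62, 0.75 and 0.53 in ISM1/ISM2, a mean of 0.63 ± 0.11 (SD, n = 3). In the control group it was 0.38, 0.48 and 0.15, in HTF/MultiBlast 0.20, 0.32 and 0.38, and in KSOM(aa) 0.17 and 0.16. The oviduct arrays gave 0.07, -0.03 and -0.06. Their values are small partly because their own mean is the reference, so their distance from the other arrays is partly built in. All 3 ISM1/ISM2 arrays lay above the 11 others, and all 11 arrays of the other groups lay above the 3 oviduct arrays. The wider lists of other mitotic and replication genes, given below by group and not by array, do not place ISM1/ISM2 highest. Against oviduct their mitotic median still lay above their replication median in each of the remaining groups. The array-by-array measure has no p-value, since the genes were chosen with earlier results known.

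**Figure D4:**
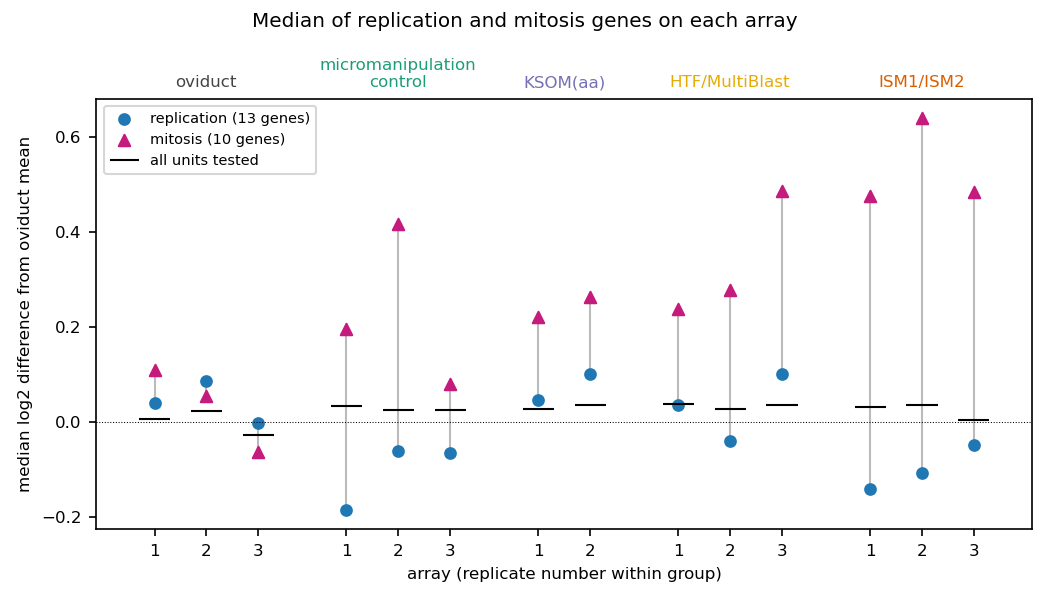
Median log2 difference from the oviduct mean (y axis) on each array for the 13 replication genes (circles), the 10 mitotic genes (triangles) and all 8669 units (bars). The vertical gap between triangle and circle is 0.53 to 0.75 on the ISM1/ISM2 arrays and at most 0.48 on the others.

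Other genes of the same processes, in lists also drawn up with earlier results known, were read beside the members. In ISM1/ISM2 against oviduct, 11 of 45 other mitotic genes rose and 2 fell, with a median of 0.29, where 14.3% of all units rose and 11.5% fell. Those with the smallest adjusted p were *Cks2*, a subunit of cyclin-dependent kinases (1.56 ± 0.30, 0.00233), *Sgo1*, the protector of centromeric cohesion (1.07 ± 0.22, 0.00329), and the spindle assembly factor *Tpx2* (0.73 ± 0.16, 0.00453), which rose, and the kinetochore subunit *Spc24*, which fell (-1.05 ± 0.22, 0.00362). The other gene of that list that fell was *Ccng2*, an atypical cyclin known to be associated with cell cycle arrest. Of 40 other replication genes 2 rose, the fork subunit *Gins3* (0.70 ± 0.20, 0.0194) and the clamp loader subunit *Rfc4* (0.84 ± 0.24, 0.0222), and 1 fell, *Uhrf1* (-0.71 ± 0.22, 0.03), which brings DNA methylation to newly copied DNA. Their median was 0.08, and both shares lay below those of all units.

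The wider lists do not set ISM1/ISM2 apart as the members did. The medians against oviduct of the other mitotic and the other replication genes were 0.29 and 0.08 in ISM1/ISM2 and 0.19 and -0.03 in HTF/MultiBlast. They were 0.27 and -0.09 in KSOM(aa) and 0.27 and -0.07 in the control group, so the gap was wider in these groups than in ISM1/ISM2. Compared directly, ISM1/ISM2 against KSOM(aa) gave -0.03 for the other mitotic genes and 0.12 for the other replication genes, and against the control group 0.08 and 0.17, the reverse of the order seen for the members. Against HTF/MultiBlast it gave 0.14 for the other mitotic genes and 0.09 for the other replication genes, the same order as for the members.

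Inhibitors of the cycle and genes of the E2F and RB network were read in the same comparison. Of 23 genes 8 rose and 0 fell, with a median of 0.52, where 14.3% of all units rose. Not all of the 8 are inhibitors of the cycle. *Cdkn2b*, p15, an inhibitor of CDK4 and CDK6, rose by 2.16 ± 0.39 (adjusted p = 0.00152) and *Cdkn1c*, p57, an inhibitor of cyclin-dependent kinases, by 2.13 ± 0.41 (0.00212). *Rb1*, the retinoblastoma protein, rose by 1.97 ± 0.34 (0.00105), and *Chek2*, a DNA damage checkpoint kinase, by 1.41 ± 0.25 (0.00134). In HTF/MultiBlast 4 of the 23 rose, *Cdkn1c* (1.85 ± 0.41, 0.019), *Chek2* (1.06 ± 0.25, 0.0264), *Rb1* (1.42 ± 0.34, 0.0271) and *Skp2* (1.35 ± 0.36, 0.0419), the last a ubiquitin ligase subunit that marks p27 for destruction. There 0 of 40 other replication genes passed, and 1 of 45 other mitotic genes, *Spc24*, which fell (-1.08 ± 0.22, 0.0125), where 3.51% of all units rose and 2.68% fell. In KSOM(aa) and in the control group 0 genes of these 3 lists passed.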

How the data were processed

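RNA of 14 samples was labelled with biotin and read on 1-colour Illumina bead arrays. The deposited table of non-normalised values holds an intensity and a detection p-value per probe and array, exported with BeadStudio 3.2 per the submitters' processing notes, which also name lumi and RMA. The deposited log2 table of the same arrays holds the authors' normalised values, and was used as an alternative only. Intensities were background-corrected with normexp by detection p-value (limma 3.58.1 in R 4.3.3, neqc, offset 16), quantile-normalised and put on the log2 scale. Of 25697 probes, 10975 had a detection p under 0.01 on at least 2 arrays. The brightest probe stood for each symbol, which left 8669 units, 644 of them without a symbol. Gene symbols came from the platform annotation, with 23978 probes given 1 symbol, 0 several and 1719 none.

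Linear models over all 5 groups (limma lmFit and eBayes, no covariate) gave 7 pairwise comparisons and an F test, with Benjamini-Hochberg adjustment over all 8669 units and a threshold of 0.05. The step was tested on simulated data. Quantile normalisation gives every array the same distribution, so differences are relative to all other probes, and the 14 arrays limit the precision. The rule for naming genes gave values on every array for members that passed against oviduct or in the F test, and at most 4 passing genes of each other list per comparison. Members and lists were chosen with earlier results of these data known. Promoters were from RefSeq (GRCm38.p6), and the array files name no build, so no probe coordinates are given.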

Additional observations from a re-analysis of the deposited data

How the results depend on the processing

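Of 15 calls of a member in a comparison, recomputed under alternatives to give 367 values, 300 passed in the same direction, 67 did not pass, and 0 changed sign. Many of these values could not change sign, since leaving out an array of a group not compared keeps the log2 difference. In comparisons without KSOM(aa), leaving out 1 or both of its arrays gave the same values, which were counted each time. The alternatives of leaving KSOM(aa) out and of oviduct replicate 2 alone were chosen after seeing the data. The number of all units called moved between alternatives as well. In HTF/MultiBlast against oviduct it was 536 in the fit used above, 819 with KSOM(aa) left out and 407 with the authors' values. For most of the counts below it is not given, so a change in a member count is not read as particular to these genes. Members called in ISM1/ISM2 against oviduct numbered 9, and 14 (11 higher, 3 lower) with scaling to the 75th percentile, 3 with oviduct replicate 2 alone and 3 to 12 with 1 array left out. In HTF/MultiBlast against oviduct they numbered 2, and 0 with the authors' values, 1 with all probes tested, 1 with probes detected on all arrays, 1 with the mean of probes, 1 with the replicate block, 5 with KSOM(aa) left out, 0 with oviduct replicate 2 alone and 0 to 5 with 1 array left out. In KSOM(aa) against oviduct they numbered 0, and 0 to 3 with 1 array left out. In the micromanipulation control against oviduct they numbered 0, and 2 with array weights, 1 with KSOM(aa) left out and 0 to 1 with 1 array left out. In ISM1/ISM2 against HTF/MultiBlast they numbered 0, and 1 each with the mean of probes, offset 50, array weights and KSOM(aa) left out, and 0 to 1 with 1 array left out. In ISM1/ISM2 against KSOM(aa) they numbered 2, and 1 with all probes tested, 1 with probes detected on all arrays, 0 with array weights, 0 when only the 2 groups compared were fitted and 0 to 3 with 1 array left out. In ISM1/ISM2 against the control they numbered 2, and 4 with scaling to the 75th percentile, 4 with the replicate block, 6 with array weights, 7 when only the 2 groups were fitted, 4 with KSOM(aa) left out and 2 to 4 with 1 array left out. In the F test they numbered 2, and 7 with array weights, 9 with KSOM(aa) left out and 1 to 9 with 1 array left out.

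The replication median minus the mitotic median stayed below 0 in every alternative run, though leaving out an array of a group not compared cannot move it. It was -0.43 in HTF/MultiBlast (-0.29 with all probes tested, -0.30 with oviduct replicate 2 alone, -0.43 to -0.28 with 1 array left out) and -0.62 in ISM1/ISM2 (-0.43 with all probes tested, -0.66 to -0.52 with 1 array left out). It was -0.19 in KSOM(aa) (-0.11 with scaling to the 75th percentile and with all probes tested, -0.32 to -0.14 with 1 array left out) and -0.26 in the control (-0.39 with the mean of probes, -0.36 to -0.20 with 1 array left out). Replicate numbers showed no pairing on average. Deviations of same-numbered arrays correlated at a mean of 0.0221 (8 of 26 pairs over 0.1), beside -0.0104 for 52 pairs of different number. Same-numbered pairs ran from -0.358 to 0.427, and deviations cancel out within each group, so the check cannot exclude pairing in some groups. The replicate block moved the 2 counts given above by over 1.5 times: *Rrm2* was lost in HTF/MultiBlast against oviduct (adjusted p = 0.0513), and *Birc5* (0.045) and *Tyms* (0.049) passed in ISM1/ISM2 against the control. Leaving out an array also leaves fewer residual degrees of freedom; the cause of the other shifts was not tested. Signals near background limit *Mcm3*, *Ccnd1* and *Cdc25a*, which were not detected on all arrays.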
